A study of Mus musculus with 8 samples.

Results

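The transforming growth factor beta (TGF-beta) system was followed here through 8 genes. They were the ligands Tgfb1, Tgfb2 and Tgfb3, the receptors Tgfbr1 and Tgfbr2, the ligand activator Thbs1, and the targets Tgfbi and Smad7. The genes were chosen by name, and all 8 were among the 18473 genes kept, out of 32502 genes listed in any of the count tables. The 8 libraries were single-cell suspensions of C57BL/6 mouse brain (C57BL/6N in the methods) processed by Drop-seq, a droplet method that tags the 3' end of each captured transcript with a unique molecular identifier (UMI). Mice were Irg1/Acod1 +/+ (wild-type, WT) or Irg1/Acod1 -/- (knockout, KO). By the methods the knockout allele carries a cassette inserted in the gene, whose product is the enzyme that makes itaconate in myeloid cells. In 3 libraries of each genotype the mouse had received 500 GL261 cells, a mouse glioma line derived from C57BL/6, and was taken at a tumour volume of 5 to 10 mm3 (early), 20 to 25 mm3 (intermediate) or 30 to 35 mm3 (late). The labels place the implant in the right striatum and the methods in the frontal cortex. By the paper, the tumour region was dissected from tumour-bearing brains. The 2 naïve libraries carried no implant and each pooled 2 mice, whereas each tumour-bearing library came from 1 mouse. Each genotype and stage was therefore 1 library, and p-values measure the spread between libraries of different stage and genotype rather than between replicates of 1 condition. By the methods, the early and intermediate WT and KO mice differed in sex, so genotype and sex cannot be told apart at those stages. Sex also varied along the stages within each genotype, and the stage comparisons did not account for it. Ages were not given in the sources used here.

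TGF-beta ligands are secreted in a latent form, held by a propeptide and by binding proteins in the matrix, and act only once they are released. Thrombospondin-1, the product of Thbs1, is one of the extracellular proteins that can free them. Active ligand binds the type II receptor (Tgfbr2), which recruits and phosphorylates the type I receptor (Tgfbr1), and this in turn phosphorylates SMAD2 and SMAD3, which enter the nucleus with SMAD4. Among the genes switched on are Smad7, an inhibitor that feeds back on the receptor, and Tgfbi, which encodes a secreted matrix protein. In the brain this signal is known for keeping microglia in their homeostatic state, whereas in glioma it is known for immune suppression and matrix remodelling.

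Of the 5698 cells kept, the clusters gave 14 classes, named from marker genes without using any member of the TGF-beta list in the clustering. Median depth per cell was 2598 to 5638 UMIs between libraries, which kept 454 to 1000 cells each and shared 22 barcodes over all pairs. The tumour-bearing libraries held 3397 tumour cells, 447 macrophage-like cells and 176 microglia-like cells, and the naïve libraries 205 microglia-like cells. Infiltrating macrophage-like cells are called TAM II and resident microglia-like cells TAM I below, where TAM is a tumour-associated myeloid cell. Summed microglial markers reached 21870 to 26630 UMIs per 1000000 UMIs (CPM) in TAM I and 6235 to 8166 CPM in TAM II, and summed macrophage markers 1961 to 5694 CPM and 23640 to 31490 CPM. The WT intermediate library stood apart with 925 tumour cells among 1000, 17 TAM II and 5 TAM I, and no level of a member moved by more than 1 SD without it. Acod1 UMIs were also counted in libraries labelled KO, with 27, 5 and 30 in TAM II at the early, intermediate and late stage against 76, 3 and 1 in the WT libraries. Cell numbers differed, and as levels these were 63.8, 13.1 and 63.5 CPM in KO against 129.6, 34.3 and 8.21 CPM in WT. In TAM I the KO libraries held 0, 1 and 3 Acod1 UMIs at these stages, against 64, 2 and 3 in WT. The deposited counts give no position within the transcript and do not show whether these UMIs come from an allele with the inserted cassette. The genotype could therefore not be checked from the counts. By the paper, genotypes were checked by PCR, and qPCR did not detect Acod1 in macrophages grown from KO bone marrow.

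The bases just before the transcription start are shown for Tgfb1, Tgfb2, Tgfbr1, Tgfbr2 and Tgfbi, read 5' to 3' on the gene's own strand. Windows of the other members are not shown, and the choice did not rest on levels. They are RefSeq sequences on GRCm38.p6, and capitals mark matches to a SMAD box (GTCTG or its reverse complement CAGAC), a GC box (GGGCGG or CCGCCC) or a TATA box (TATAAA). Each window held 250 bases, except that of Tgfbi, which held 187. There the 63 bases next to the RefSeq start, at the 3' end of the window, were left off because they overlap an annotated gene, so the RefSeq start lies 63 bases past the last base shown.
Tgfb1, chr7:25686752-25687001, + strand: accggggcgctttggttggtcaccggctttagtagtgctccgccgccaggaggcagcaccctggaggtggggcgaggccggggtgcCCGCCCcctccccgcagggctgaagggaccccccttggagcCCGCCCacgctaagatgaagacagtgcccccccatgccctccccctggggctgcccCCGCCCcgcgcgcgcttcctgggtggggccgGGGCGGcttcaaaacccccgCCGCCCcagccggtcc
Tgfb2, chr1:186705990-186706239, - strand: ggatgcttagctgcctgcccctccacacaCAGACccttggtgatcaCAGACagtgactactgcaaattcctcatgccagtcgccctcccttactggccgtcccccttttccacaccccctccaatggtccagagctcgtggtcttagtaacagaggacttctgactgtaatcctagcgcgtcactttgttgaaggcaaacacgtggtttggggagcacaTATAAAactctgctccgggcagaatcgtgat
Tgfbr1, chr4:47352972-47353221, + strand: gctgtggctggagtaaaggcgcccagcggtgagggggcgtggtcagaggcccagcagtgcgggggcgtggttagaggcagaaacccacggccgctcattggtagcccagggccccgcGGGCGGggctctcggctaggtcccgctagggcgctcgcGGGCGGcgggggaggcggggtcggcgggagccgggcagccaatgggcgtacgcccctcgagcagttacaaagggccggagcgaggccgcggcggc
Tgfbr2, chr9:116175364-116175613, - strand: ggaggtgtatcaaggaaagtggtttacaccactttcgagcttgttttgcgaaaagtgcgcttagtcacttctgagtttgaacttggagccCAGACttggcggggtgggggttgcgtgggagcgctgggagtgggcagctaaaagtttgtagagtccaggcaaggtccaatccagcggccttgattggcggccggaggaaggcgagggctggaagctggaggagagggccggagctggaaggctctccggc
Tgfbi, chr13:56609336-56609522, + strand: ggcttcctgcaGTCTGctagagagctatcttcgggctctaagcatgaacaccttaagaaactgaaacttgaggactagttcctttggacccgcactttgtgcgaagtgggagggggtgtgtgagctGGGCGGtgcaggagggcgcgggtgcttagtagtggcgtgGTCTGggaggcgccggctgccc
The Tgfb1 window held 5 GC boxes and the Tgfb2 window a TATA box 31 bases before the start with 2 SMAD boxes at 221 and 204 bases. Tgfbr1 had 2 GC boxes, at 133 and 95 bases, and Tgfbr2 a single SMAD box at 160 bases. In Tgfbi, 2 SMAD boxes lay 239 and 85 bases before the RefSeq start and 1 GC box at 124 bases, counted with the 63 bases not shown. On either strand, a SMAD box was present in 42.2% of the 32851 windows of 250 bases, a GC box in 32.7% and a TATA box in 12.4%, so matches of this kind are common. No AP-1 site (TGANTCA, in 6.75% of windows) or GAGGAAGT, the PU.1 site, (in 2.44%) was found in the 5 windows.

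Levels were compared as CPM of the UMIs summed over the cells of a class within a library, given as mean ± SD over tumour-bearing libraries with at least 5 cells of the class. Tests used edgeR's quasi-likelihood model over all genes that passed its filter, with Benjamini-Hochberg adjusted p. A class was set against the summed other nontumour cells of the same libraries, and tumour cells against all nontumour cells. The members totalled 676 UMIs (Tgfb3) to 5013 UMIs (Tgfbi) over all cells, and intervals on counts cover counting error only.

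**Figure D1:**
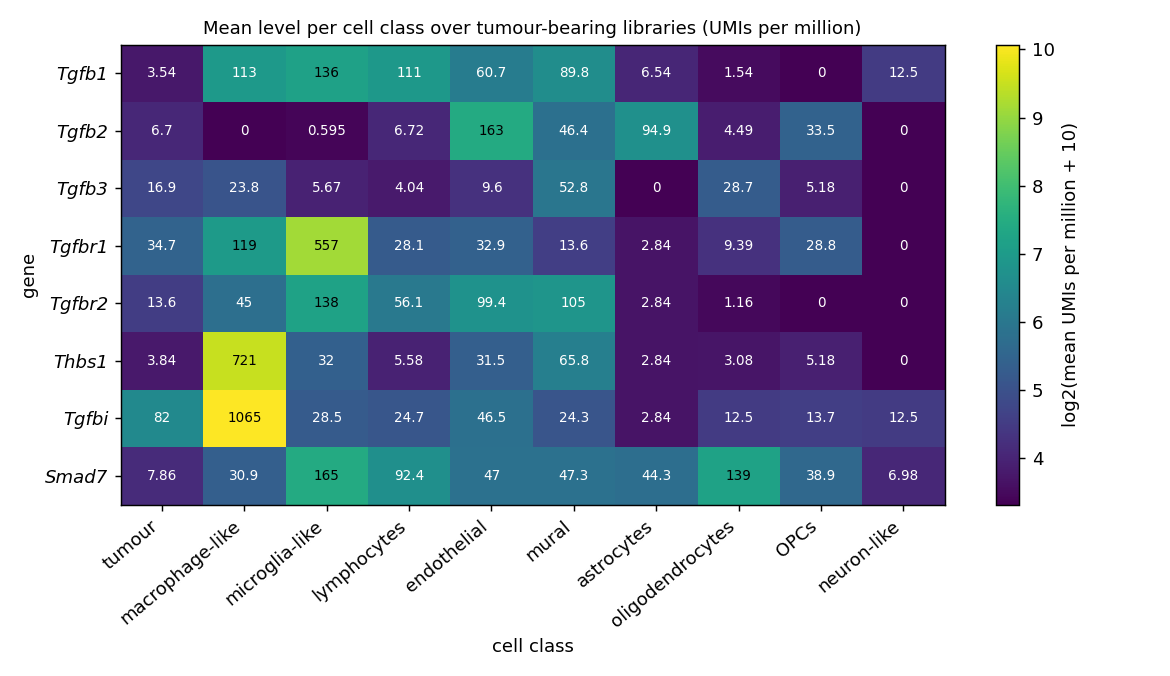
Mean level over tumour-bearing libraries of each TGF-beta gene (rows) in 10 cell classes (columns), with the CPM printed in each square and colour as log2(mean CPM + 10). Macrophage-like cells hold the highest Tgfbi (1065 CPM) and Thbs1 (721 CPM), microglia-like cells the highest Tgfbr1 (557 CPM) and endothelial cells the highest Tgfb2 (163 CPM).

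The ligands came from different cells. Tgfb1, the main TGF-beta of immune cells, was highest in myeloid cells, lymphocytes and mural cells, Tgfb2 in endothelial cells, astrocytes and choroid plexus-like cells, and Tgfb3 stood out in no single class. In TAM I, Tgfb1 ranged from 101 to 191 CPM with a median of 128 CPM (136 ± 34.9, n = 6). In TAM II it ranged from 91.0 to 123 CPM with a median of 117 CPM (113 ± 11.7, n = 6). In lymphocytes it stood at 97.0, 124, 68.0, 168 and 97.3 CPM in the WT early, WT intermediate, KO early, KO intermediate and KO late libraries. In mural cells, the pericytes and smooth muscle of the vessel wall with some fibroblasts, it was 164, 28.2 and 77.4 CPM in the WT early, WT late and KO intermediate libraries, from 12, 2 and 5 UMIs. These 4 classes overlapped, and TAM I exceeded TAM II in 5 of 6 libraries (exact two-sided sign-flip permutation test, p = 0.125). Against the other nontumour cells of their libraries, Tgfb1 was 1.97-fold higher in TAM II (log2 difference 0.98 ± 0.17 SE, adjusted p = 0.000313) and 2.01-fold higher in TAM I (1.008 ± 0.25 SE, adjusted p = 0.00343). The second call was lost without the WT early library (0.87, adjusted p = 0.0534). Lymphocytes differed by 0.31 ± 0.26 SE, which did not pass (adjusted p = 0.364), and mural cells by -0.12 ± 0.54 SE (adjusted p = 0.943). In endothelial cells Tgfb1 was 60.7 ± 32.6 CPM (n = 5), with 16.2 CPM in the lowest library and 106 CPM in the highest, against 23.9 and 32.2 CPM in the naïve libraries. Tumour cells gave 2.26 to 4.59 CPM, below every TAM I and TAM II value, and were 23.5-fold lower than the nontumour cells (log2 difference -4.55 ± 0.16 SE, adjusted p = 7.65e-08). Oligodendrocytes held 1 Tgfb1 UMI in 224 cells. Oligodendrocyte precursor cells (OPCs) held none, at least 6.58-fold lower than the other nontumour cells when 3 UMIs are taken as the floor over all 6 libraries.

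Tgfb2, which acts in vessel, eye and heart development, was high in other classes than Tgfb1. In endothelial cells it was 165, 141.0, 129.8, 246 and 133 CPM in the WT early, WT late, KO early, KO intermediate and KO late libraries (163 ± 48.5, n = 5) and 193 and 293 CPM in the WT and KO naïve libraries. Astrocytes held 114, 65.4, 148, 106 and 41.7 CPM in the same order of libraries (94.9 ± 41.8, n = 5) and 87.2 and 97.1 CPM in the naïve brain. Each of these library values exceeded every tumour cell value, which ran from 2.03 to 11.1 CPM. Choroid plexus-like cells, the epithelium that makes cerebrospinal fluid, held 373 and 276 CPM in the WT and KO naïve libraries and 242 CPM in the KO intermediate library, from 96, 40 and 5 UMIs. Against the other nontumour cells Tgfb2 was 9.14-fold higher in endothelial cells (3.19 ± 0.40 SE, adjusted p = 4.08e-08) and 3.95-fold higher in astrocytes (1.98 ± 0.53 SE, adjusted p = 0.000809). Endothelial Tgfb2 depended on how vessel cells were divided. When cells with more mural than endothelial marker UMIs were left in the cluster, its mean was 93.3 CPM over 6 libraries, as the WT intermediate library then reached 5 cells, and 106 ± 16.1 CPM over the same 5 libraries. No Tgfb2 UMI was found in TAM II among 2073111 UMIs, which puts it at least 31.0-fold below the other nontumour cells taking 3 UMIs over all libraries as the floor. After each cell was thinned to 1500 UMIs, 0 of 447 TAM II carried a Tgfb2 UMI, which allows a share of cells with a UMI of up to 0.671% when 3 cells are taken as the floor, against 22.6% of 93 endothelial cells (exact binomial 95% interval 14.6 to 32.4%).

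Tgfb3, a ligand known from palate and lung development, at chr12:86056745-86079041 on GRCm38, was spread over several classes. In mural cells it was 68.2, 28.2 and 61.9 CPM in the WT early, WT late and KO intermediate libraries, from 5, 2 and 4 UMIs. Oligodendrocytes held 28.7 ± 19.3 CPM (n = 6), TAM II 23.8 ± 19.2 CPM (n = 6) and tumour cells 16.9 ± 7.85 CPM (n = 6). The ranges of oligodendrocytes, TAM II and tumour cells overlapped, while the mural values, each from at most 5 UMIs, lay above the highest tumour value of 27.2 CPM. Tgfb3 was the only member for which tumour and nontumour cells did not differ past the threshold (log2 difference -0.29 ± 0.23 SE, adjusted p = 0.295). Without the WT intermediate library the difference was -0.53 and passed (adjusted p = 0.0452). Astrocytes of the tumour-bearing libraries held no Tgfb3 UMI.

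**Figure D2:**
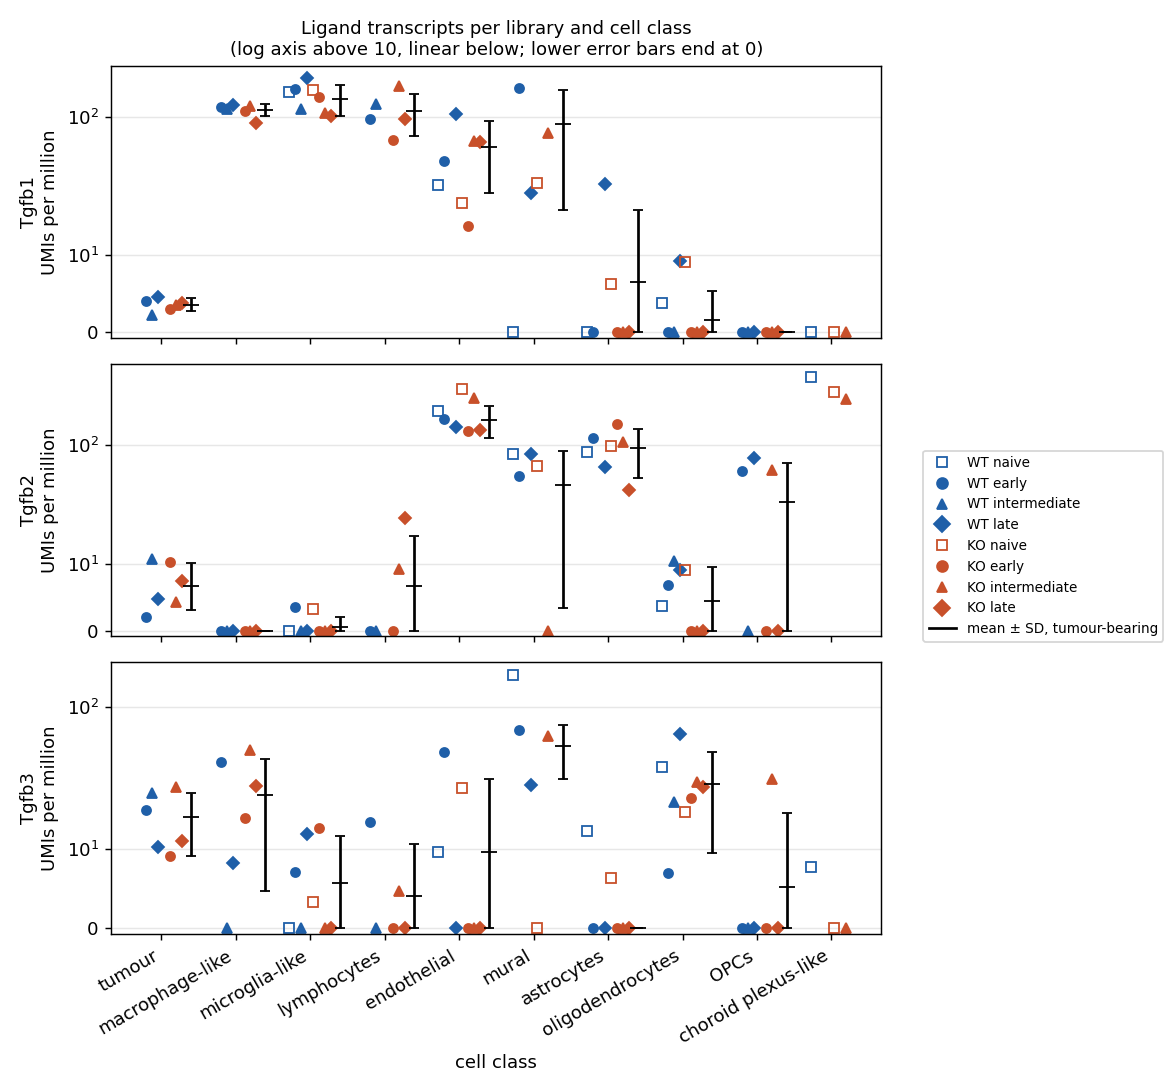
Level (CPM; log axis above 10, linear below) of Tgfb1, Tgfb2 and Tgfb3 by cell class, 1 point for each library with at least 5 cells of the class. Black bars are the mean ± SD of tumour-bearing libraries. Tgfb1 points of TAM I and TAM II lie between 91.0 and 191 CPM in tumour-bearing libraries, while Tgfb2 points of TAM II are all at 0 and those of endothelial cells between 129.8 and 293 CPM.

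The receptors were highest in microglia. Tgfbr1 ran from 395 to 692 CPM in TAM I with a median of 558 CPM (557 ± 102, n = 6), from 49.7 to 232 CPM in TAM II with a median of 90.9 CPM (119 ± 68.4, n = 6), and from 18.7 to 42.8 CPM in tumour cells (34.7 ± 8.72, n = 6). The 3 classes did not overlap, and the order held within each of the 6 libraries. Relative to the other nontumour cells Tgfbr1 was 10.0-fold higher in TAM I (3.32 ± 0.21 SE, adjusted p = 1.32e-11). In TAM II it did not differ past the threshold (0.24 ± 0.20 SE, adjusted p = 0.349). Tgfbr2 was 102 to 196 CPM in TAM I (138 ± 35.9, n = 6), which did not overlap with TAM II at 33.9 to 65.4 CPM (45.0 ± 14.0, n = 6) or with tumour cells at 12.2 to 18.0 CPM (13.6 ± 2.19, n = 6). Some of these Tgfbr2 values rest on few UMIs, with 2 in TAM I and 3 in TAM II of the WT intermediate library and 8 and 5 in WT late. Tgfbr2 was 3.74-fold higher in TAM I than in other nontumour cells (1.90 ± 0.26 SE, adjusted p = 2.52e-06). In vessels, Tgfbr2 was 123, 70.5, 81.1, 134 and 88.6 CPM in endothelial cells of the WT early, WT late, KO early, KO intermediate and KO late libraries. Mural cells held 54.6, 183 and 77.4 CPM in the WT early, WT late and KO intermediate libraries. These vessel values overlapped with those of TAM I. The endothelial difference from other nontumour cells, 0.85 ± 0.35 SE, missed the threshold (adjusted p = 0.0653). Lymphocytes had 56.1 ± 29.7 CPM (n = 5).

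For Tgfbr1, cell counts gave the same order of TAM I and TAM II as the sums. After thinning to 1500 UMIs, a Tgfbr1 UMI was found in 51.7% of 176 TAM I in tumour-bearing libraries (exact binomial 95% interval 44.1 to 59.3%) and in 18.3% of 447 TAM II. In oligodendrocytes of the same libraries, taken as a background for free RNA, the share was 1.79% of 224 cells. Without thinning these shares were 77.8%, 32.7% and 3.13%, at median depths of 2997, 3258 and 2727 UMIs per cell. For Tgfbr2 the thinned shares were 16.5% in TAM I, 6.04% in TAM II and 18.3% in endothelial cells. By this measure TAM I thus did not exceed endothelial cells. Of the TAM I, 16 carried UMIs of both receptors, 75 of Tgfbr1 alone, 13 of Tgfbr2 alone and 72 of neither.

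Thbs1 and Tgfbi marked TAM II. The paper had already reported both genes as high in TAM II of the WT mice. Thbs1, at chr2:118111876-118127133, ran from 364 to 1037 CPM in TAM II with a median of 708 CPM (721 ± 252, n = 6), whereas its highest value was 63.7 CPM in TAM I and 8.04 CPM in tumour cells. Tgfbi ran from 624 to 1467 CPM in TAM II with a median of 1134 CPM (1065 ± 316, n = 6), from 42.4 to 135 CPM in tumour cells (82.0 ± 31.0, n = 6) and from 0 to 51.0 CPM in TAM I (28.5 ± 20.1, n = 6). Microglia of the WT and KO naïve libraries held 47.9 and 29.6 CPM of Tgfbi, from 10 and 9 UMIs, within the range of TAM I. TAM II did not overlap with either class for either gene. Against the other nontumour cells Tgfbi was 52.5-fold higher in TAM II (5.71 ± 0.25 SE, adjusted p = 2.17e-09) and Thbs1 37.2-fold higher (5.22 ± 0.26 SE, adjusted p = 5.30e-09). Mural cells had 123, 28.2 and 46.4 CPM of Thbs1 in the WT early, WT late and KO intermediate libraries, from 9, 2 and 3 UMIs. Endothelial Thbs1 was 31.5 ± 41.0 CPM (n = 5), and when mural cells were left in the cluster it was 89.8 CPM over 6 libraries and 70.5 ± 56.4 CPM over the same 5.

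**Figure D3:**
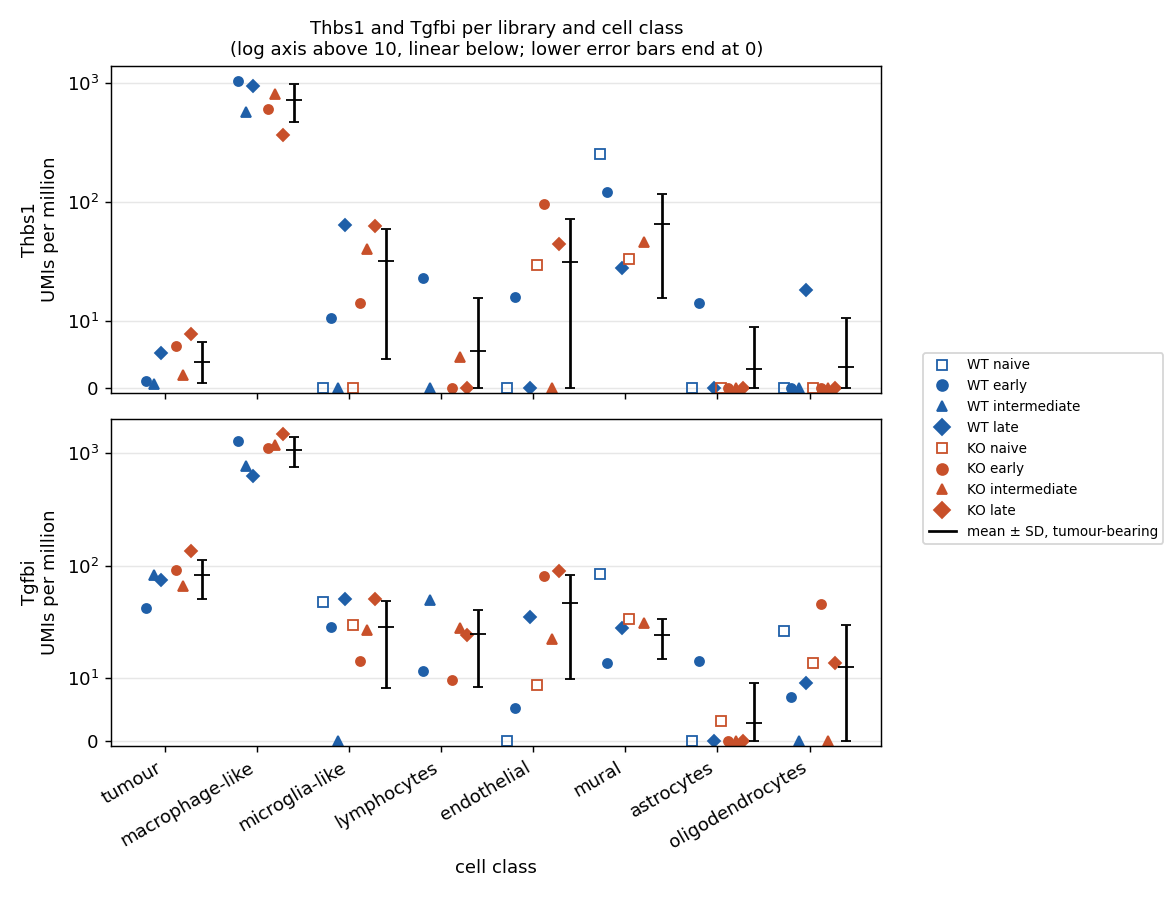
Level (CPM; log axis above 10, linear below) of Thbs1 and Tgfbi in 8 cell classes, 1 point for each library with at least 5 cells of the class and black bars for the mean ± SD of tumour-bearing libraries. The 6 TAM II (macrophage-like) points lie from 364 to 1037 CPM for Thbs1 and from 624 to 1467 CPM for Tgfbi, above every point of the other classes.

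Within TAM II, after thinning, 70.5% of 447 cells carried a Tgfbi UMI (exact binomial 95% interval 66.0 to 74.7%) and 43.2% a Thbs1 UMI (38.5 to 47.9%). Unthinned shares were 85.9% and 59.1%. Both genes were found in 140 cells, Tgfbi alone in 175, Thbs1 alone in 53 and neither in 79. Tumour cells carried Tgfbi in 8.82% of 3309 thinned cells against 1.79% of 224 oligodendrocytes. They carried Thbs1 in 0.725%, within the interval of the oligodendrocyte share of 0.446% (0.0113 to 2.46%), which rests on 1 cell. Without thinning the Thbs1 shares were 1.825% and 0.446%, at median depths of 4873 and 2727 UMIs per cell. The part of free RNA in the tumour share of Thbs1 was not tested. The ratio of UMIs between the genes also differed by class, with 1.65 Tgfbi UMIs for each Thbs1 UMI in TAM II and 23.6 in tumour cells. Lyz2, a lysozyme gene of macrophages, was used as a reference for free macrophage RNA. For each Lyz2 UMI, TAM II held 0.0721 Tgfbi and 0.0438 Thbs1 UMIs, and tumour cells 0.892 and 0.0377. Between libraries the Tgfbi to Thbs1 ratio in TAM II ranged from 0.667 in WT late to 4.03 in KO late.

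Smad7 marked microglia and oligodendrocytes. It was 56.5 to 231 CPM in TAM I with a median of 179.7 CPM (165 ± 65.6, n = 6) and 81.7 to 235 CPM in oligodendrocytes with a median of 129 CPM (139 ± 59.0, n = 6). These overlapped each other but not tumour cells, at 6.28 to 9.35 CPM (7.86 ± 1.12, n = 6). TAM II held 15.7 to 73.9 CPM (30.9 ± 21.7, n = 6), which overlapped with TAM I in its highest library, and lymphocytes 92.4 ± 41.3 CPM (n = 5). The lowest and highest TAM I values, in KO early and WT intermediate, rest on 4 UMIs each. The highest TAM II value, in WT late, rests on 9 UMIs. Relative to other nontumour cells Smad7 was 3.11-fold higher in TAM I (1.64 ± 0.27 SE, adjusted p = 4.11e-05), 2.69-fold higher in oligodendrocytes (1.43 ± 0.22 SE, adjusted p = 9.91e-06) and 2.92-fold lower in TAM II (-1.55 ± 0.31 SE, adjusted p = 0.00101). The other TGF-beta target of the list, Tgfbi, thus had the opposite order between TAM I and TAM II.

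Because most genes differ between cell classes, the counts of members are read against all genes tested. In TAM II, 5 of 7 tested members passed against the other nontumour cells, 3 higher and 2 lower, where 46.2% of 6703 genes passed. In TAM I all 6 tested members passed, 4 higher and 2 lower, against 28.6% of genes. In endothelial cells 4 of 7 passed, with Tgfb2 higher and Tgfbr1, Tgfbi and Thbs1 lower, against 30.9% of genes. Astrocytes had 6 of 7, Tgfb2 being the only one higher, against 38.4%, and oligodendrocytes 6 of 6, with Smad7 alone higher, against 57.2%. All members that passed were lower in lymphocytes (3 of 6, against 45.8%), mural cells (3 of 6, against 16.6%), OPCs (4 of 5, against 28.7%) and neuron-like cells (6 of 6, against 34.8%). Members not counted in a class did not pass the filter on low counts. Some members passed this filter only through the other cells, with 0 UMIs in the class itself. They were Tgfb2 in TAM II, Tgfb1 in OPCs, and Tgfbr1, Tgfbr2 and Thbs1 in neuron-like cells. For these only a lower call was possible, so the counts of lower members are a description. In tumour cells 7 of 8 members were lower than in the summed nontumour cells and none higher, against 65.2% of genes that passed in either direction. The deficit of tumour cells ranged from 3.36-fold for Tgfbr1 to 74.8-fold for Thbs1 among the members that passed.

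A class can also be set against the mean of the other classes, each weighted equally whatever its number of cells. This could be fitted for Tgfbi and Smad7, as each other member had 0 UMIs in at least 1 class. Tgfbi was again higher in TAM II (log2 difference 5.98 ± 0.21 SE, adjusted p = 5.50e-30, where 45.5% of 5255 genes passed). In tumour cells, however, Tgfbi was higher than the mean of the other classes (1.44 ± 0.29 SE, adjusted p = 2.59e-05, where 49.9% passed), although lower than the summed nontumour cells. Its direction in tumour cells thus depended on the reference. Smad7 was higher in TAM I (2.36 ± 0.33 SE, adjusted p = 2.83e-08, where 33.2% passed), oligodendrocytes (2.24 ± 0.32 SE, adjusted p = 4.35e-08, 36.7%) and lymphocytes (1.03 ± 0.38 SE, adjusted p = 0.0245, 39.6%). The lymphocyte call was lost without the KO intermediate library (0.53, adjusted p = 0.353). In tumour cells Smad7 was lower (-2.74 ± 0.59 SE, adjusted p = 9.80e-05).

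Tumour cells were 70.9% of the cells in the tumour-bearing libraries, so a low level per cell still gave a large share of the UMIs. They held 82.1% of all Tgfb3 UMIs of these libraries, 58.9% of Tgfbr1, 56.0% of Tgfb2, 55.4% of Tgfbr2, 48.4% of Tgfbi and 36.0% of Smad7. They held 17.4% of Tgfb1 and 6.04% of Thbs1. Between libraries the tumour share ranged from 14.2 to 90.0% for Tgfbi, from 7.5 to 80.7% for Tgfb2 and from 26.4 to 92.2% for Tgfbr1, and the TAM II share of Tgfbi from 9.15 to 83.9%. The pooled shares weigh the WT intermediate library, with its 925 tumour cells, heavily. TAM II, 9.33% of the cells, held 89.5% of Thbs1, 49.98% of Tgfbi and 40.2% of Tgfb1. TAM I, 3.67% of the cells, held 21.6% of Tgfbr1, 17.4% of Smad7 and 16.7% of Tgfb1. These are shares of the captured cells and follow the cell recovery of each library, as tumour cells were also deeper, with a median of 4873 UMIs.

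**Figure D4:**
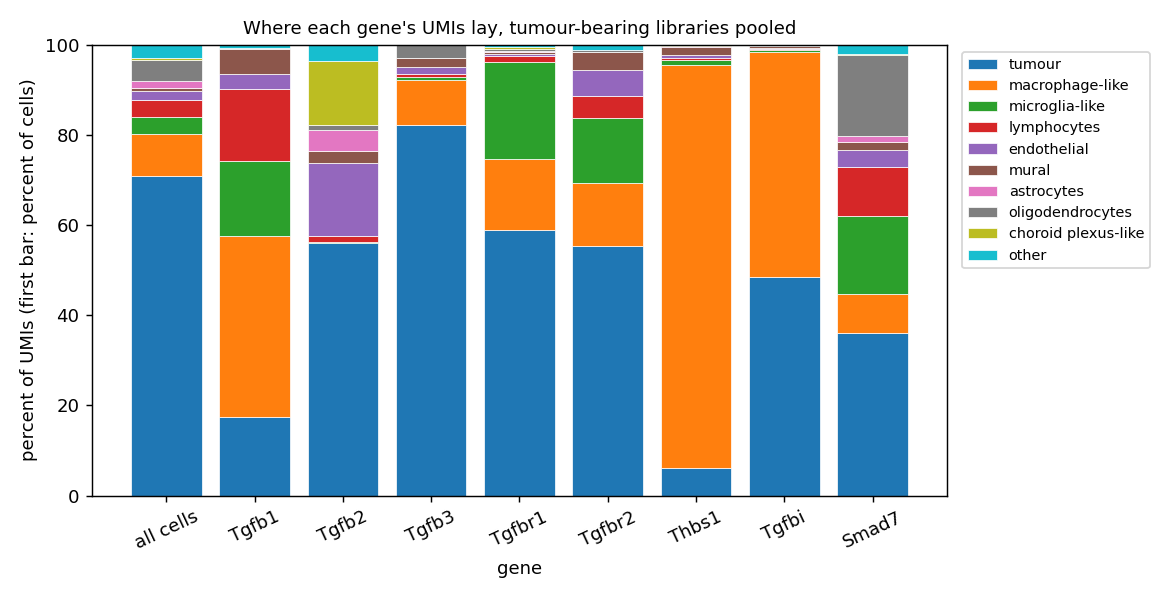
Share (percent) of the cells and of the UMIs of each TGF-beta gene held by each cell class, summed over the 6 tumour-bearing libraries. Tumour cells make up 70.9% of cells and 82.1% of Tgfb3 UMIs but 6.04% of Thbs1 UMIs, while TAM II make up 9.33% of cells and 89.5% of Thbs1 UMIs.

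Neighbouring classes in the order of levels were compared for each member over the libraries that held both. Of 72 neighbour pairs none passed after adjustment, the smallest adjusted p being 0.45, and with 6 libraries the exact sign-flip test cannot go below p = 0.0313. This smallest p was reached for Tgfbr1 between TAM I and TAM II and between TAM II and tumour cells, and for Tgfbi between TAM II and tumour cells. With 72 pairs, most of them would have had to reach this smallest p for any to pass after adjustment, so the missed threshold says nothing about the order, which is given as a description.

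The direct comparison of TAM II with TAM I asked which members separate infiltrating from resident myeloid cells. Ligand activator and matrix target were higher in TAM II and both receptors higher in TAM I. Tgfbi was 33.7-fold higher in TAM II (log2 difference 5.08 ± 0.27 SE, adjusted p = 2.80e-09) and Thbs1 23.2-fold higher (4.54 ± 0.36 SE, adjusted p = 1.26e-07). Tgfbr1 was 4.80-fold lower (-2.26 ± 0.22 SE, adjusted p = 9.68e-07) and Tgfbr2 3.18-fold lower (-1.67 ± 0.22 SE, adjusted p = 2.86e-05). The direction was the same in 6 of 6 libraries for these 4 genes. Tgfb1 did not pass (-0.33, 95% interval -0.78 to 0.12, adjusted p = 0.266). Thus 4 of 5 tested members passed where 30.3% of 2469 genes did. Tgfbi and Thbs1 had already been reported by the paper for TAM II from these data, so the count is not independent support. Tgfb2, Tgfb3 and Smad7 were removed by the filter. Macrophage marker Lyz2 stood at 784 to 3846 CPM in TAM I of tumour-bearing libraries against 404 and 594 CPM in naïve microglia, while Arg1, expressed by infiltrating macrophages, had 1 UMI in TAM I, in the KO early library. The part of carried-over macrophage RNA in the TAM I values of Thbs1 and Tgfbi was not tested.

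A wider list of 55 TGF-beta pathway genes, of which 51 were kept, was set beside the members. Of these, 6 are microglial genes known to depend on TGF-beta, which stayed in the clustering and were read only between naïve and tumour-bearing microglia. The other 49 were left out of the clustering. Between TAM II and TAM I, 10 of the 49 passed the filter, 3 being higher in TAM II and 4 lower, with a median log2 difference of -0.28 against 0.07 over all genes, of which 30.3% passed. Higher were Fn1 (1.86), encoding fibronectin, Cdkn1a (1.03), a cell cycle inhibitor, and Fkbp1a (0.69), which binds and holds back the type I receptor. The lower ones included the inhibitors of the pathway Pmepa1 (-1.16), Ski (-0.97) and Skil (-0.78). In mural cells 13 of 17 tested target genes were higher than in other nontumour cells and 1 was lower (16.6% of all genes passed), led by the collagen genes Col1a1 (8.35) and Col1a2 (8.12), the collagen crosslinker Lox (7.87) and Timp1 (7.53), a protease inhibitor. The mural class was cut from the vessel cluster by UMIs of mural and fibroblast markers, so high values of matrix genes follow in part from that cut. In endothelial cells 8 of 14 targets were higher and 2 lower (30.9% of all genes passed), among the higher Id1 (4.97) and Id3 (2.81), inhibitors of helix-loop-helix factors. The co-receptor gene Eng (4.50, endoglin), the type I receptor gene Acvrl1 (3.12, ALK1) and Ltbp4 (4.89), a latent ligand binding protein, were also higher there. In tumour cells 42 of the 49 genes were tested against nontumour cells, 5 being higher and 25 lower (65.2% of all genes passed; median -1.34 against 0.11 over all genes). The higher ones included Emilin1 (2.17), an inhibitor of ligand processing, the matrix genes Mmp2 (1.70) and Postn (1.43), and Tgif2 (0.99), a SMAD corepressor. The largest deficits were those of Lox (-7.97), Col1a2 (-7.64), Acta2 (-5.31), a smooth muscle actin, and the co-receptor Tgfbr3 (-5.01).

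The comparison of tumour-bearing with naïve brain showed 1 change among the members. As only the tumour region was taken from tumour-bearing brains, tissue region and tumour cannot be told apart in it. Tgfbr1 in microglia-like cells was 1816 CPM in the WT naïve and 1226 CPM in the KO naïve library, and in tumour-bearing libraries 628, 692 and 510 CPM (WT early, intermediate, late) and 395, 560.0 and 557 CPM (KO early, intermediate, late). All 6 tumour-bearing values lay below both naïve values, also within each genotype. The difference was 2.70-fold (log2 -1.43 ± 0.28 SE, adjusted p = 0.00203). Without the WT naïve library it was -1.32 and no longer passed (adjusted p = 0.0979). The share of thinned cells with a Tgfbr1 UMI was 80.0% of 205 in naïve brain (exact binomial 95% interval 73.9 to 85.3%) against the 51.7% of 176 given above. Tgfbr2 was 201 and 246 CPM in the naïve libraries, and the lower levels in TAM I did not pass (-0.57 ± 0.32 SE, adjusted p = 0.233). Tgfb1 (153 and 158 CPM naïve; -0.15 ± 0.32 SE, adjusted p = 0.792) and Smad7 (101 and 161 CPM naïve; 0.31 ± 0.38 SE, adjusted p = 0.620) overlapped between conditions. Thus 1 of 4 tested members passed where 16.2% of 3134 genes did. Naïve microglia held no Thbs1 UMI in either library, against 20 UMIs in the tumour-bearing libraries, where Lyz2 was also higher, as given above.

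Among the pathway genes in microglia-like cells, 16 were tested between tumour-bearing and naïve brain. Higher with tumour were Fn1 (4.24), Cdkn1a (4.10), Tgif1 (2.26), another SMAD corepressor, and Id2 (1.35), a relative of Id1. Lower were 5 of the 6 microglial genes that depend on TGF-beta and none of the other 10 genes tested, namely P2ry12 (-1.78), Gpr34 (-1.60), Sall1 (-1.38), Fcrls (-1.33) and Tmem119 (-1.22). Of all 3134 genes tested, 287 were higher and 222 lower. The paper had already reported lower P2ry12, Gpr34, Fcrls and Tmem119 in TAM I as a loss of homeostatic genes. Their fall was thus known beforehand, and its link to TGF-beta was not tested. The median of the 16 genes was -0.21 against -0.00215 over all genes. Summed microglial markers, which include 4 of these 5 genes, were 31600 and 34030 CPM in the naïve libraries, above the 21870 to 26630 CPM with tumour. Each naïve library was 1 preparation, so the naïve condition rests on 2 libraries.

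**Figure D5:**
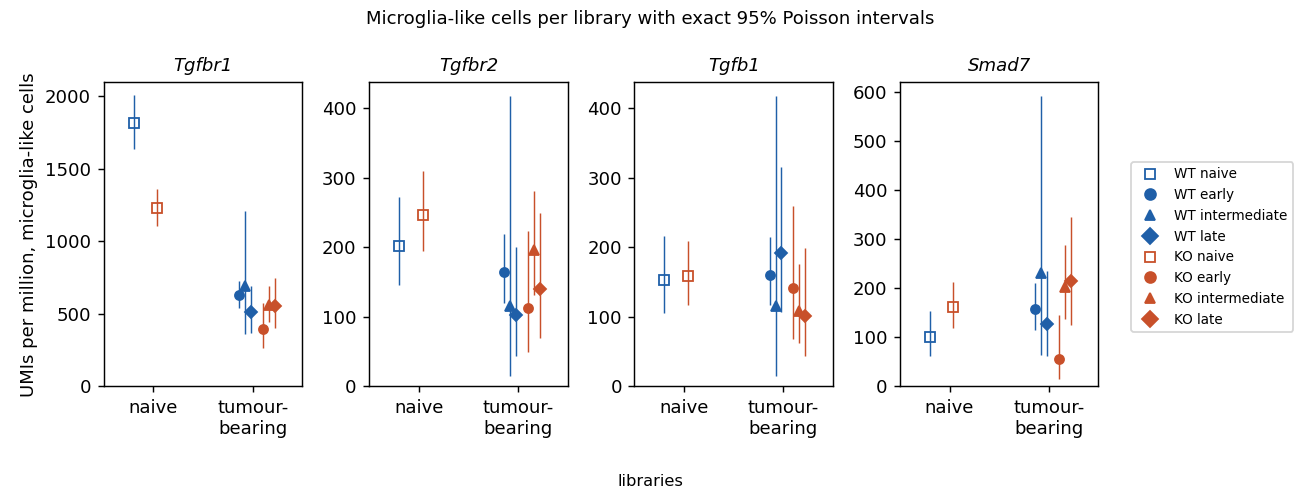
Level (CPM) of Tgfb1, Tgfbr1, Tgfbr2 and Smad7 in microglia-like cells of each library, with exact Poisson 95% intervals. Tgfbr1 stands at 1226 and 1816 CPM in the naïve libraries and at 395 to 692 CPM in the 6 tumour-bearing libraries.

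Outside the microglia, 1 member was tested between tumour-bearing and naïve brain in endothelial cells and 1 in oligodendrocytes, and neither passed. Endothelial Tgfb2 differed by -0.56 ± 0.32 SE (adjusted p = 0.465, where 4.52% of genes passed), and Smad7 in oligodendrocytes differed by 0.19 ± 0.35 SE (adjusted p = 0.925, where 2.23% passed). The other members of these classes were not tested, among them endothelial Tgfb1 with the values given above. In astrocytes no member passed the filter (1.31% of the 611 genes tested passed). Tgfbr1 in astrocytes was 47.0 and 75.2 CPM in the naïve libraries, from 38 UMIs, against 2 UMIs in all 73 astrocytes of the tumour-bearing libraries, and was not tested.

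Neither genotype nor stage gave a member past the threshold. Between KO and WT, 0 of 8 members passed in tumour cells (0.0146% of 13695 genes passed, with 886 at unadjusted p under 0.05 and 69 by DESeq2), 0 of 4 in TAM I (0% of 1440 genes, 62 at unadjusted p under 0.05 and 1 by DESeq2) and 0 of 6 in TAM II (0.09% of 5558 genes, 254 and 11). Thbs1 in tumour cells was 1.02, 0.502 and 5.27 CPM in WT and 6.31, 1.88 and 8.04 CPM in KO at the early, intermediate and late stage. It was thus higher in KO at 3 of 3 stages by 1.48 ± 0.51 SE, which did not pass (adjusted p = 0.660). The part of free RNA in these tumour values was not tested. In TAM II, Thbs1 was 1037, 572 and 936 CPM in WT and 605, 811 and 364 CPM in KO at the same stages, so the order of genotypes turned at the intermediate stage (-0.55 ± 0.33 SE, adjusted p = 0.998). Tgfbi was 1264, 766 and 624 CPM in WT and 1095, 1172 and 1467 CPM in KO (0.55 ± 0.32 SE, adjusted p = 0.998). Tgfbr1 in TAM II was lower in KO at the early stage, at 49.7 against 232 CPM, and higher at the intermediate stage, at 170.1 against 91.5 CPM. No member was called by DESeq2 in these comparisons. Each of these values is 1 mouse.

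Along the stages, taken as 3 evenly spaced levels, no member passed in tumour cells (0% of 14343 genes passed, with 947 at unadjusted p under 0.05 and 12 by DESeq2), in TAM I (0.166% of 1808 genes) or in TAM II (0% of 6289 genes, 319 at unadjusted p under 0.05 and 0 by DESeq2). The largest slope of a member was that of Thbs1 in tumour cells, at 0.63 ± 0.46 SE log2 units per stage (adjusted p = 0.840). None of the tested pathway genes among the 49 passed for genotype (40, 6 and 19 tested in tumour cells, TAM I and TAM II) or stage (41, 8 and 22 tested). A missed threshold does not show that levels were equal.

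For each member, the genes with the most similar levels over the 74 sums of class and library were found among 4420 genes, as Pearson's r of log2(CPM + 10). The sums share libraries and classes, so r is a description. Thbs1 and Tgfbi were each other's closest gene (r = 0.79), followed by Msr1 (0.78), a scavenger receptor, and Cxcl1 (0.78) for Thbs1 and by Arg1 (0.77) and Ms4a7 (0.75) for Tgfbi. Tgfbr1 was closest to the microglial genes Cx3cr1 (0.83), Tmem119 (0.80) and Fcrls (0.80). Tgfbr2 was closest to the cytokine receptor genes Il6ra (0.79) and Il10rb (0.77) and to Btg2 (0.79). Tgfb1 was closest to Gngt2 (0.86) and Srgn (0.85), and to Gm8995 (0.85). Tgfb2 was closest to Slco1c1 (0.82), a thyroid hormone transporter of brain vessels and astrocytes, Slc38a3 (0.81) and Ccdc141 (0.79). Smad7 and Tgfb3 had no gene as near, the highest values being 0.61 for Rasgrp3 and 0.58 for Gsn.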

How the data were processed

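The authors deposited Drop-seq counts, with 1 table of UMI counts per gene and barcode for each library, not normalized. Per the labels' processing notes, base calls were made with bcl2fastq 2.0 and reads aligned with STAR to mouse GRCm38 (mm10). The STAR version is not given in the sources used here. Following the study's methods, the first 1000 of 3000 barcodes by UMIs, genes in at least 30 cells and cells with at least 1000 genes were kept.

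Cells of all libraries were clustered together with the 8 members and the pathway list left out, using 50 principal components of log2(CPM + 1), t-SNE (Rtsne 0.17, perplexity 50) and HDBSCAN (smallest cluster 19 cells). Cells it left unassigned, 182, took the class of their 15 nearest neighbours. Clusters were named from fixed marker lists, and cells of the endothelial cluster with more mural than endothelial marker UMIs formed the mural class (49 cells, 7 of them within 2 UMIs of the cut). Mural marker genes were thus used to make that class. Doublets were not removed. Scrublet marked 1 to 11 cells a library, under 0.5% in 5 of the 8 libraries, and one alternative removed its calls or, in those 5, the cells with the top 5% of scores. Another 5 barcodes of the naïve libraries that fell among tumour cells were left out.

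UMIs were summed by class and library where at least 5 cells were present (74 sums) and divided by all UMIs of the kept genes to give CPM. Tests across genes used edgeR 4.0.16 (quasi-likelihood, TMM scaling, filterByExpr) in R 4.3.3, with adjusted p under 0.05. Class comparisons carried library as a block, genotype comparisons carried stage, and naïve comparisons carried genotype. DESeq2 1.42.0 was an alternative. The planned class comparison, a class minus the mean of the other classes, gave values for Tgfbi and Smad7 only, because each other member had 0 UMIs in at least 1 class. The comparison with the summed other nontumour cells was chosen after seeing the data. Differences between neighbouring classes used exact two-sided sign-flip permutation tests on log2(CPM + 10), and shares of cells used cells thinned to 1500 UMIs. Fits were tested on simulated data. The members, gene lists and tests were chosen with earlier results of these data known. Named genes were the 8 members, the 3 genes with the highest r for each, and pathway genes past the threshold, largest differences first. Replicate numbers were not given, and no column belonged to another sample. One gene of the pathway list is not reported here by name.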

Additional observations from a re-analysis of the deposited data

Results flagged for a closer look

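Of 29 groups of library values with at least 20 UMIs, 3 had an extreme library by Dixon's criterion, which chance gives in about 1 of 20 groups. Tgfb1 in macrophage-like cells was lowest in the KO late library, at 91.0 CPM (43 UMIs in 116 cells), with the next library at 111 CPM. Tgfbr2 in tumour cells was highest in the KO intermediate library, at 18.0 CPM (86 UMIs in 562 cells), with the next at 13.3 CPM. Smad7 in macrophage-like cells was highest in the WT late library, at 73.9 CPM, with the next at 30.7 CPM, and rested on 9 UMIs in 27 cells.

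Barcodes outside the first 1000 of each library, which no comparison used, also held member UMIs. In these barcodes Thbs1 was 58.2 CPM at the median of the tumour-bearing libraries (24.4 to 93.1 CPM) against 1.29 and 3.63 CPM in the naïve libraries. Tgfbi was 118 CPM at the median (69.4 to 196 CPM) against 3.63 and 9.06 CPM.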

How the results depend on the processing

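No difference of a member that passed the threshold, with the settings of the report or in a refit, changed sign. Of the refitted values for single members 1815 kept their direction and side of the threshold, 19 came to pass, 4 no longer passed and 85, in 34 differences that passed in neither fit, changed sign. Counts of members past the threshold moved by more than 1.5 times in 17 refits and did not in 442. Without the filter on low counts they rose from 3 to 5 in lymphocytes, from 4 to 7 in OPCs (both against the summed other cells) and from 1 to 2 in microglia-like cells against naïve brain, and the last count was 0 without the WT naïve library and 0 to 1 over all libraries left out. In the comparison with the mean of the other classes, Leiden clustering gave 1 for 0 in astrocytes and in neuron-like cells and 2 for 1 in oligodendrocytes, as did leaving out unassigned cells (2 in oligodendrocytes, 1 for 0 in OPCs) and DESeq2 (2 in oligodendrocytes). Removing doublets gave 2 for 1 in macrophage-like cells, and a minimum of 10 cells 0 for 1 in lymphocytes. Leaving out a library gave 0 to 1 in astrocytes, lymphocytes and OPCs and 1 to 2 in macrophage-like cells and oligodendrocytes. The cause was not tested. Leaving the endothelial cluster whole moved 2 of 8 levels by more than 1 SD (1 when the same 5 libraries were used, an alternative chosen after seeing the data), and without thinning 39 of 112 shares left their interval. The Tgfbr1 call in microglia-like cells against naïve brain held in 17 of 18 alternatives. The labels give no replicate numbers shared between groups, so none could serve as a block; library and stage were the blocks used. Depth limits the classes with few cells, where 3 UMIs amount to 173 CPM in the smallest microglia-like sum.

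The changed signs, as log2 differences, were the following. Against the mean of the other classes, Smad7 in astrocytes was -0.12 with Leiden clustering, -1.37 without unassigned cells, -1.31 without doublets, -0.15 without the filter on low counts and -0.015 with a minimum of 10 cells. Tgfbi in endothelial cells was -0.73 with Leiden clustering, -0.65 with another tSNE seed and -0.54 without doublets, and in mural cells 0.28 with another seed. Smad7 in mural cells was -0.17 with Leiden clustering and -0.088 with another seed, which also gave 0.24 for Tgfb1 in mural cells against the summed other cells. Between KO and WT, tumour Tgfb1 was -0.315 without doublets and -0.012 without the stage block, and tumour Smad7 0.030 with Leiden clustering and 0.062 without unassigned cells. In TAM I, Tgfbr2 was -0.18 with a minimum of 10 cells and Smad7 0.021 without the stage block, and in TAM II Tgfbr2 was 0.047 without unassigned cells. Per stage, tumour Tgfb1 was -0.10 without doublets, and tumour Tgfbr2 -0.038 with Leiden clustering, -0.0093 with another seed, -0.028 without unassigned cells, -0.090 without doublets and -0.0014 without the genotype covariate. In TAM I, with another seed and without unassigned cells, Tgfb1 was 0.033 and 0.013 and Tgfbr1 0.094 and 0.089 per stage.

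Leaving out 1 library at a time gave ranges across 0 for the same kind of difference. Against the mean of the other classes they were -2.57 to 0.72 (Smad7, astrocytes), -0.36 to 1.46 (Tgfbi, endothelial cells), -1.20 to 0.0047 (Tgfbi, lymphocytes), -0.067 to 0.61 (Tgfbi, TAM I), -0.33 to 0.031 (Tgfbi, mural cells) and -0.24 to 0.36 (Smad7, mural cells). Against the summed other cells, Tgfbr2 in lymphocytes ran from -0.61 to 0.031. Against naïve brain, Tgfb1 in TAM I ran from -0.49 to 0.077, Smad7 in TAM I from -0.016 to 0.60 and Smad7 in oligodendrocytes from -0.089 to 0.48. Between KO and WT, the ranges in tumour cells were -0.31 to 0.21 (Tgfb1), -0.32 to 1.39 (Tgfb2), -0.41 to 0.17 (Tgfb3) and -0.13 to 0.062 (Smad7). They were -0.53 to 0.0054 (Tgfbr1), -0.18 to 0.62 (Tgfbr2) and -0.86 to 0.45 (Smad7) in TAM I, and -0.46 to 2.90 (Tgfb3), -1.36 to 0.41 (Tgfbr1) and -0.58 to 0.36 (Tgfbr2) in TAM II. Per stage, they were -0.091 to 0.33 (Tgfb1), -0.45 to 0.49 (Tgfb2), -0.63 to 0.17 (Tgfb3), -0.17 to 0.30 (Tgfbr1), -0.072 to 0.13 (Tgfbr2) and -0.048 to 0.18 (Smad7) in tumour cells. In TAM I they were -0.25 to 0.14 (Tgfbr1), -0.51 to 0.080 (Tgfbr2) and -0.21 to 0.66 (Smad7), and in TAM II -1.28 to 0.31 (Tgfb3), -0.93 to 0.20 (Tgfbr1) and -0.46 to 0.091 (Tgfbi). The cause of these changes of sign was not tested.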
